A study of Mus musculus with 8 samples.

Results

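The fibroblast growth factor (FGF) genes of the mouse and the inhibitors that act on their pathway were followed through 10 days of differentiation of TC1 cells, a mouse embryonic stem cell line. The set holds every protein-coding gene of the GENCODE M21 annotation whose symbol names a fibroblast growth factor, a receptor (Fgfr1 to Fgfr4 and Fgfrl1), a Sprouty, a Spred or Dusp6. It has 35 genes of the annotation, of which 34 had a transcript among the 32780 genes measured, and Spry3 had none. RNA was sequenced from wild-type TC1 cells after 10 days of differentiation (4 libraries) and from wild-type TC1 cells before differentiation (day 0, 4 libraries). The comparison throughout is day 10 against day 0. Both groups are 1 cell line with no added allele. The labels state neither the culture medium nor the cell type reached at day 10. They also do not say if replicates are separate cultures, so the p-values cover only the spread between these libraries, which may be technical.

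Fibroblast growth factors are secreted proteins that bind receptor tyrosine kinases together with heparan sulphate, and the receptors pass the signal through the adaptor Frs2 to RAS, RAF, MEK and ERK. Mouse embryonic stem cells make Fgf4 themselves, and its signal through ERK prepares them to leave the pluripotent state. In the embryo the ligands often pass between epithelium and mesenchyme, with the receptor form set by splicing of the third immunoglobulin-like domain, and the Sprouty and Spred proteins and the phosphatase Dusp6 dampen ERK signalling as feedback inhibitors.

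Each library held between 13525255 and 17843651 estimated counts at day 10 and between 11242568 and 15808039 at day 0. Of all 15097 genes with enough counts to test, edgeR called 42.7% higher and 39.4% lower at day 10 (adjusted p under 0.05), with a median log2 change of 0.06. A call is thus the common outcome for a gene in these data. The share of all genes whose day 10 and day 0 libraries did not overlap was not counted. A gap between the groups, where given below, therefore sets no gene apart. Summed over the 10 pluripotency markers, levels were 132 to 203 TPM at day 10 and 4868 to 5471 TPM at day 0, and all 10 genes were called lower in counts. For Klf4 the change in counts was small (log2 change -0.19 ± 0.07 SE, adjusted p = 0.0224). Its TPM was higher at day 10 (113 ± 10.4) than at day 0 (95.5 ± 2.06; SD, n = 4 each), and it made up most of the day 10 sum. TPM is the transcript level per length, scaled so that each library sums to 1000000. Cardiomyocyte markers summed to 728 to 1100 TPM at day 10 and 77.1 to 81.8 TPM at day 0 (11 of 11 tested higher). Smooth muscle markers summed to 493 to 804 TPM at day 10 and 19.9 to 23.9 TPM at day 0 (4 of 5 higher), and endothelial markers to 209 to 255 TPM at day 10 and 18.7 to 25.8 TPM at day 0 (6 of 6 higher). Fibroblast markers summed to 3115 to 5126 TPM at day 10 and 53.7 to 56.2 TPM at day 0 (7 of 7 higher), and epicardium and mesothelium markers to 176 to 283 TPM at day 10 and 8.34 to 9.84 TPM at day 0 (5 of 5 higher). Blood markers summed to 43.4 to 66.8 TPM at day 10 and 4.37 to 5.19 TPM at day 0, where Hba-x and Hbb-bh1 had no counts (4 of 5 higher). Trophoblast markers summed to 33.7 to 41.7 TPM at day 10 and 0.602 to 1.38 TPM at day 0 (3 of 3 higher), and epithelial markers to 370 to 583 TPM at day 10 and 405 to 435 TPM at day 0 (3 higher, 2 lower of 5). Most of the trophoblast sum at day 10 was Krt7, at 32.7 ± 3.98 TPM (SD, n = 4). Gata3, Cdx2 and Elf5 averaged 4.33, 1.38 and 0.864 TPM there, so the sum says little about trophoblast. The day 10 libraries thus carried RNA of several cell types, and in such bulk samples fewer cells of a type and less RNA per cell cannot be told apart. The part of these cell types in the changes given next was not tested.

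Of the 34 FGF genes in the files, 27 had enough counts to test. At day 10, 14 of the 27 were higher (51.9%, against 42.7% of all genes), 7 were lower (25.9%, against 39.4%) and 6 passed in neither direction. Their median log2 change was 0.26, beside 0.06 over all genes. By role, 5 secreted ligands were higher and 3 lower of 9 tested, 4 of 5 receptors were higher and none lower, and 4 feedback inhibitors were lower and 2 higher of 7. The 7 genes not tested were the ligands Fgf6, Fgf7, Fgf16, Fgf18, Fgf20 and Fgf22 and the hormone Fgf21. When the test was made on TPM, a scale on which the median of all genes lay at 0.39, 18 members were higher and 6 lower of 29 tested, where 50.7% of all genes were higher and 26.2% lower.

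**Figure D1:**
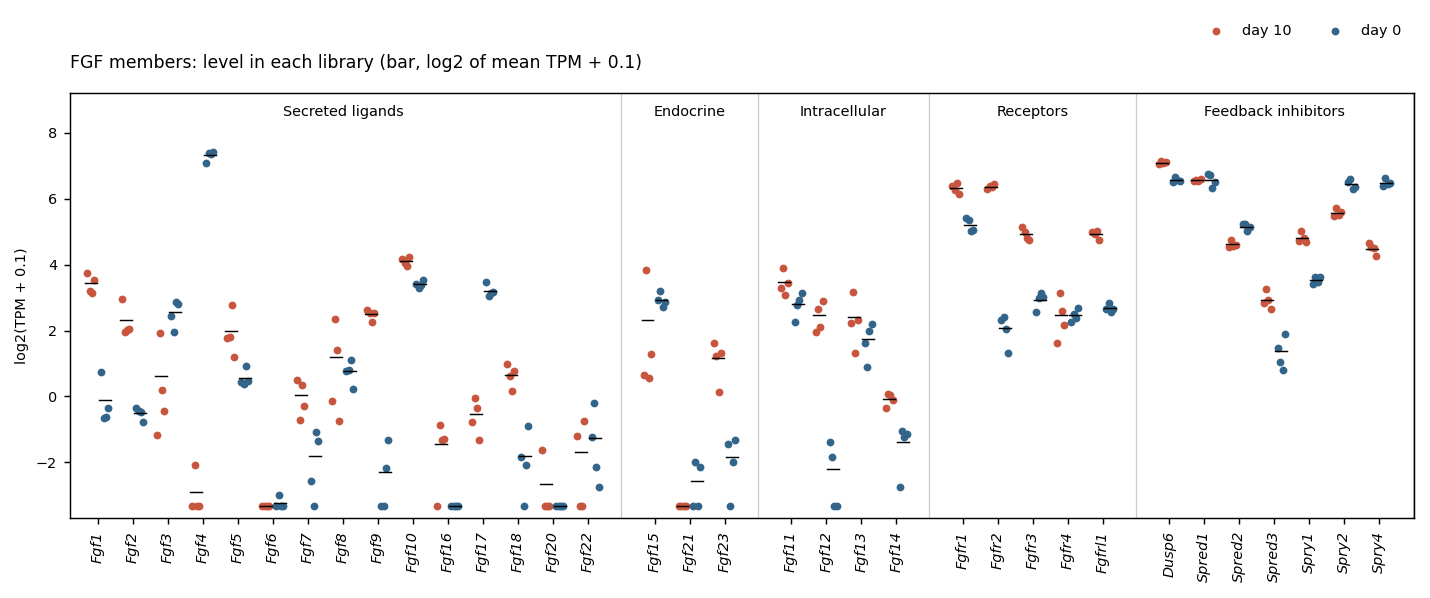
Level of each of the 34 FGF genes in the files in each library, as log2(TPM + 0.1), with day 10 libraries (red) left of day 0 libraries (blue) and a bar at the mean TPM of the 4 libraries. Fgf4 lay at 137 to 172 TPM in day 0 libraries and at 0 to 0.137 TPM in day 10 libraries, and all 4 libraries of day 10 lay above those of day 0 for Fgfr1, Fgfr2, Fgfr3 and Fgfrl1.

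The summed level of the secreted ligands was 49.4 ± 3.69 TPM at day 10 and 190 ± 14.6 TPM at day 0 (SD, n = 4 each). The lead passed between ligands: Fgf10 held 34.7% of the sum at day 10, and Fgf4 held 83.9% of it at day 0. Without Fgf4, the other 14 secreted ligands summed to 49.4 ± 3.67 TPM at day 10 and 30.6 ± 2.91 TPM at day 0, so the sum without Fgf4 was higher at day 10.

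Fgf4 (ENSMUSG00000050917) was measured at 0, 0.137, 0 and 0 TPM in the 4 day 10 libraries and at 137, 166, 164 and 172 TPM in the 4 day 0 libraries. The day 10 signal was 3 counts, all in library 2, against 15872 counts at day 0, a ratio of 0.000161 (95% interval from counting 3.33e-05 to 0.000472), and without that library no count was left at day 10. Fgf4 lies on chromosome 7 beside Fgf3, which was also lower at day 10. The windows from 250 bases before to 50 after the start of both genes are printed here because these neighbours fell together. Sequences are from RefSeq (GRCm38.p6), which held windows for 26 of the FGF genes, and capitals mark the letters of a motif.
Fgf4 promoter, chr7:144861136-144861435, plus strand: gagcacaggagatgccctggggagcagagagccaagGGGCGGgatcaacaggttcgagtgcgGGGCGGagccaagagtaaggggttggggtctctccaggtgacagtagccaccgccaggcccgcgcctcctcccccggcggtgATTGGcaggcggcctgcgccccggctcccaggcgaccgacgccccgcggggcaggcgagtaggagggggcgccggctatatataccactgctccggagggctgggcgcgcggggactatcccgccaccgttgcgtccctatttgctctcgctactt
Fgf3 promoter, chr7:144838362-144838661, plus strand: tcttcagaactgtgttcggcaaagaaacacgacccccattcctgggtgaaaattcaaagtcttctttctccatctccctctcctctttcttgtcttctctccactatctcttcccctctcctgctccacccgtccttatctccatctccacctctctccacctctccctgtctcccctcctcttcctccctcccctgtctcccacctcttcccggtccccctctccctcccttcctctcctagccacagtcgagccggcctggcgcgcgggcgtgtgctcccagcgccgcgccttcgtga
The motifs searched on both strands were the GC box GGGCGG, the CCAAT box CCAAT, the TATA box TATAAA and the ETS core CCGGAA, none of which contains another. The Fgf4 window held 2 GC boxes and 1 CCAAT box, which lay on the opposite strand, and its GC content was 69.7%. The Fgf3 window held none of the 4 motifs, which says only that these letters are not in this window, and its GC content was 59.3%. Of all 32851 mouse windows of this length, 35.7% held a GC box, 37.4% a CCAAT box, 13.6% a TATA box and 14.9% an ETS core. Of the 33 windows of FGF genes, 22 held a GC box, 11 a CCAAT box, 3 a TATA box and 5 an ETS core.

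Fgf17 and Fgf3, both signals of the gastrulating embryo and of organ primordia, were the other secreted ligands to fall. Fgf17 lay at 0.488, 0.864, 0.685 and 0.297 TPM in day 10 libraries and at 10.9, 8.13, 8.71 and 8.81 TPM in day 0 libraries, a log2 change of -4.34 ± 0.27 (SE; adjusted p = 2.64e-09). Fgf3 lay at 0.348, 3.73, 1.05 and 0.636 TPM in day 10 libraries and at 5.3, 3.77, 7.22 and 6.82 TPM in day 0 libraries, a log2 change of -2.76 ± 0.38 (adjusted p = 1.48e-05). For Fgf17 the day 10 and day 0 libraries were far apart, whereas the highest day 10 library of Fgf3, library 2, came close to the lowest day 0 library. Without library 2 the change of Fgf3 was -3.46 (adjusted p = 8.35e-09). Fgf8, a signal of the primitive streak, was at 0.808, 4.99, 2.53 and 0.49 TPM in day 10 libraries and at 1.6, 1.65, 2.07 and 1.08 TPM in day 0 libraries. Its groups overlapped and its log2 change of 0.25 ± 0.59 did not pass the test (adjusted p = 0.703).

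Fgf1, Fgf2 and Fgf9 rose most among the secreted ligands. Fgf1, which binds all FGF receptors and leaves the cell without a classical signal peptide, lay at 13.4, 9.06, 8.8 and 11.6 TPM in day 10 libraries and at 1.57, 0.537, 0.552 and 0.687 TPM in day 0 libraries. Fgf9, a ligand that mesothelia and epithelia send to the mesenchyme, lay at 6.07, 5.74, 4.68 and 5.7 TPM in day 10 libraries and at 0, 0, 0.122 and 0.3 TPM in day 0 libraries. All day 10 libraries stood clear of all day 0 libraries for both genes. The log2 change was 3.63 ± 0.21 for Fgf1 (adjusted p = 1.09e-09) and 5.48 ± 0.49 for Fgf9 (adjusted p = 1.33e-07). Fgf9 had 388 counts at day 10 and 7 at day 0, and its change was 7.44 without day 0 library 4 (adjusted p = 2.79e-08). Fgf2, a ligand secreted by the same unconventional route as Fgf1, ranged over 3.81 to 7.75 TPM in day 10 libraries and over 0.483 to 0.677 TPM in day 0 libraries, with a log2 change of 3.80 ± 0.24 (adjusted p = 2.64e-09). The Fgf2 change was 2.58 once the mean transcript length of the gene in each library was allowed for. Fgf2 also shares exon bases with Nudt6 on the opposite strand, which had 45 counts at day 10 and 42 at day 0.

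Fgf10, which mesenchyme sends to epithelia and which binds the IIIb form of Fgfr2, was the secreted ligand with the highest level at day 10. It lay at 18.1, 16.6, 15.3 and 18.6 TPM in day 10 libraries and at 10.6, 9.59, 10.4 and 11.4 TPM in day 0 libraries. All day 10 libraries were above all day 0 libraries on this scale, and the change in counts was small, at 0.26 ± 0.10 on the log2 scale (adjusted p = 0.0255). The change was 0.19 to 0.24 (adjusted p = 0.0589 to 0.11) when day 0 library 1 or 2 or day 10 library 1 or 4 was left out. It turned to -0.20 (adjusted p = 0.073) when the trend of change on gene length was removed. Fgf5, which marks the epiblast after implantation, ranged over 2.18 to 6.69 TPM in day 10 libraries and over 1.19 to 1.81 TPM in day 0 libraries, with a log2 change of 0.94 ± 0.38 (adjusted p = 0.0366). Without day 10 library 3, the highest, that change was 0.43 (adjusted p = 0.205), and its call also ended without day 0 library 1, 2 or 4 (0.84 to 0.90, adjusted p = 0.082 to 0.0986).

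The untested ligands were near the limit of detection. Fgf7, which like Fgf10 binds the IIIb form of Fgfr2, had 59 counts over the 4 day 10 libraries and 5 over the 4 day 0 libraries, and Fgf18, a ligand of the skeleton and lung, had 40 at day 10 and 6 at day 0. Fgf16, a ligand of the developing heart and ear, had 12 counts at day 10 and 0 at day 0, which is at least 3.42-fold higher with the day 0 group set to a floor of 3 counts in all. Fgf22, a ligand at synapses, had 8 counts at day 10 and 13 at day 0. No more than 2 counts were seen on either day for Fgf20, Fgf21 and Fgf6, and no fold is given for them.

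Of the endocrine members, which act at a distance and need a Klotho protein in place of heparan sulphate, Fgf15 was measured best. Fgf15, the mouse counterpart of human FGF19 and a bile acid hormone of the gut, lay at 1.48, 14.3, 1.36 and 2.34 TPM in day 10 libraries and at 7.52, 9.15, 6.42 and 7.13 TPM in day 0 libraries. In 3 of 4 day 10 libraries it was below every day 0 library, and in library 2 it was above them all. Its log2 change was -1.05 ± 0.73 (adjusted p = 0.214) with all libraries and -2.49 (adjusted p = 3.38e-08) without day 10 library 2. Fgf23, the phosphate hormone of bone, ranged over 0.995 to 2.98 TPM in day 10 libraries and over 0 to 0.297 TPM in day 0 libraries, with a log2 change of 3.12 ± 0.56 (adjusted p = 0.000129) on 107 counts at day 10 and 10 at day 0. Of the co-receptors, Klb averaged 15.7 ± 4.88 TPM at day 10 and 8.8 ± 0.288 TPM at day 0 (SD, n = 4 each; log2 change 0.26 ± 0.23, adjusted p = 0.309), and Kl had 42 counts at day 10 and 6 at day 0.

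The intracellular members Fgf11 to Fgf14 are not secreted and bind voltage-gated sodium channels. Fgf12 lay at 3.81, 6.19, 4.24 and 7.42 TPM in day 10 libraries and at 0.283, 0.18, 0 and 0 TPM in day 0 libraries. It had 217 counts at day 10 and 3 at day 0, a ratio of 61.8 (95% interval from counting 20.9 to 302), and without day 0 library 1 its fitted log2 change was 6.74, against 5.72 with all libraries. Fgf14 ranged over 0.69 to 0.957 TPM in day 10 libraries and over 0.0478 to 0.385 TPM in day 0 libraries, with a log2 change of 1.18 ± 0.41 (adjusted p = 0.0169), and its call ended with the gene length trend removed (0.90, adjusted p = 0.0579). Fgf11 ranged over 8.39 to 14.7 TPM in day 10 libraries and over 4.71 to 8.65 TPM in day 0 libraries, and its log2 change in counts was 0.23 ± 0.21 (adjusted p = 0.314). On TPM the change of Fgf11 was 0.59 (adjusted p = 0.0175), or 0.20 above the median of all genes on that scale. Fgf13 ranged over 2.39 to 8.85 TPM in day 10 libraries and over 1.74 to 4.45 TPM in day 0 libraries, overlapping widely (log2 change -0.13 ± 0.35, adjusted p = 0.751).

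**Figure D2:**
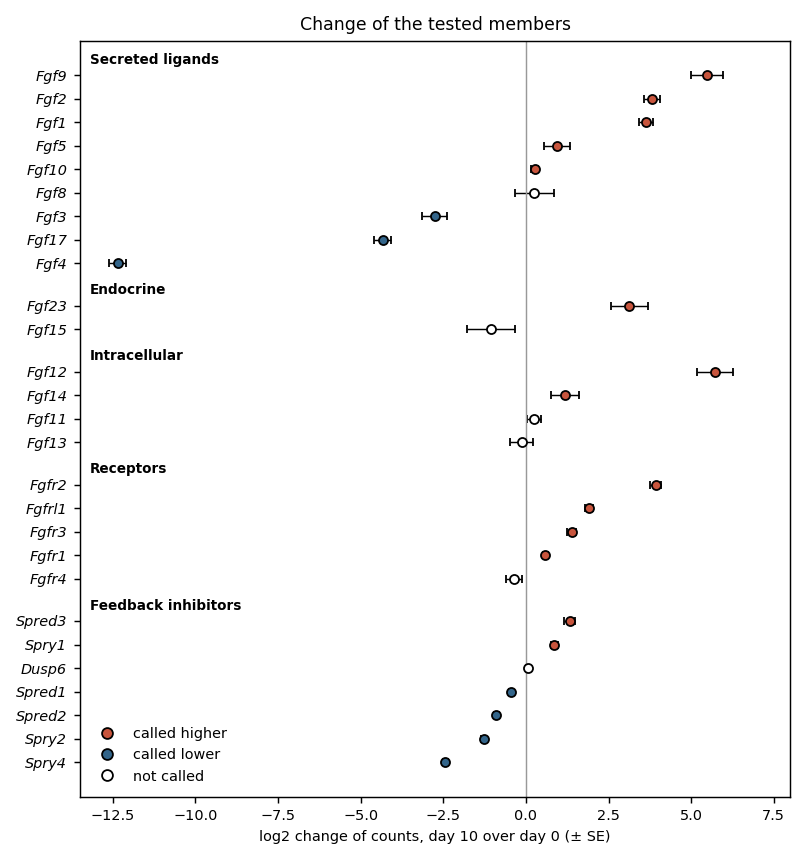
Log2 change of counts, day 10 over day 0, with SE, for the 27 FGF genes tested, grouped by role and ordered by size; red marks genes called higher, blue genes called lower and white genes not called at an adjusted p of 0.05. Of the 5 receptors, 4 lie right of 0, and Fgf4 (3 counts at day 10) and Fgf12 (3 counts at day 0) sit at fitted values that depend on the prior count.

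Receptor transcripts were more abundant at day 10. The 5 receptor genes summed to 229 ± 8.97 TPM at day 10 and 60.6 ± 5.62 TPM at day 0 (SD, n = 4 each). Fgfr2 changed most: it lay at 79, 83.5, 81.4 and 86.9 TPM in day 10 libraries and at 4.87, 5.17, 4 and 2.38 TPM in day 0 libraries. That is a 15.2-fold rise in counts, with a log2 change of 3.92 ± 0.16 (adjusted p = 2.8e-10). Fgfr2 shares exon bases on the same strand with Ctbp2 in the annotation, and Ctbp2 had fewer counts at day 10 (2940) than at day 0 (9615).

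Fgfr1, the main receptor of embryonic stem cells, lay at 83.9, 77.2, 89 and 71.4 TPM in day 10 libraries and at 42.7, 40.8, 32.2 and 32.8 TPM in day 0 libraries (log2 change 0.59 ± 0.08, adjusted p = 6.22e-06). Fgfr3, a receptor best known from cartilage, lay at 35.3, 31.4, 27.9 and 26.9 TPM in day 10 libraries and at 5.84, 7.78, 8.71 and 7.95 TPM in day 0 libraries (log2 change 1.38 ± 0.13, adjusted p = 1.7e-07). Fgfrl1, a receptor-like protein that binds ligand but has no kinase domain, lay at 32, 30.5, 32.4 and 26.6 TPM in day 10 libraries and at 6.18, 7.09, 5.81 and 6.16 TPM in day 0 libraries (log2 change 1.91 ± 0.11, adjusted p = 1.01e-09). None of these 3 genes had a day 10 library within the range of day 0, and the share of such genes among all genes was not counted. Fgfr4 lay at 2.96, 8.72, 5.88 and 4.37 TPM in day 10 libraries and at 4.7, 5.6, 5.14 and 6.32 TPM in day 0 libraries, and its groups overlapped (log2 change -0.36 ± 0.25, adjusted p = 0.211). Without day 10 library 2, the highest, the change of Fgfr4 was -0.65 (adjusted p = 0.00451), and with the gene length trend removed it was -0.59 (adjusted p = 0.048).

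The make-up of the receptor pool differed with it. Of the summed TPM of the 4 kinase receptors, Fgfr2 held 41.6 ± 2.96% at day 10 and 7.47 ± 1.8% at day 0, and Fgfr1 held 40.3 ± 2.77% at day 10 and 68.2 ± 3.94% at day 0 (SD, n = 4 each). Fgfr3 kept a like share, 15.3 ± 1.74% at day 10 and 14.2 ± 3.28% at day 0, and Fgfr4 held 2.75 ± 1.21% at day 10 and 10.1 ± 1.97% at day 0. At day 10 the levels of Fgfr2 (82.7 ± 3.34 TPM) and Fgfr1 (80.4 ± 7.67 TPM) lay within 1 SD of each other.

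Fgfr1, Fgfr2 and Fgfr3 each carry 2 alternative exons for the second part of the third immunoglobulin-like domain, and the choice between them, IIIb or IIIc, sets which ligands a receptor binds. The exons were found in the GENCODE M21 annotation (GRCm38) as neighbouring coding exons that transcripts use in place of each other, the upstream of which is IIIb. A transcript was taken to hold an exon only where both ends of the exon matched. One with the exon cut short or extended counted as without it. The shares given next cover only transcripts that hold exactly 1 of the 2 exons. These made up 34 ± 3.47% of the TPM of Fgfr1 at day 10 and 39.3 ± 4.46% at day 0, 31.4 ± 3.01% of Fgfr2 at day 10 and 46.8 ± 13.1% at day 0, and 41.5 ± 5.14% of Fgfr3 at day 10 and 48.5 ± 5.26% at day 0 (SD, n = 4 each).

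The Fgfr2 rise took in both forms. Transcripts with the IIIb exon, which in the embryo is typical of epithelium, summed to 8.96 ± 1.43 TPM at day 10 and 0.518 ± 0.162 TPM at day 0, and those with the IIIc exon, typical of mesenchyme, summed to 17 ± 2.14 TPM at day 10 and 1.28 ± 0.325 TPM at day 0 (SD, n = 4 each). The IIIb share of the 2 forms of Fgfr2 was 27.7, 36.8, 35 and 38.9% in day 10 libraries and 25, 44.8, 20.7 and 26.7% in day 0 libraries. The groups overlapped, and the mean difference of 5.29 points was not separable from the spread (exact permutation test, two-sided, p = 0.371, adjusted over 3 receptors p = 0.557). The day 0 shares rest on 43 counts for IIIb and 164 for IIIc over 4 libraries.

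In Fgfr3 the IIIb share was 17.5, 38.5, 38.3 and 24.7% in day 10 libraries and 34.8, 13.9, 12.3 and 29.4% in day 0 libraries. The groups overlapped, and the difference of 7.18 points did not pass (exact permutation test, adjusted p = 0.557). Both Fgfr3 forms were more abundant at day 10, with IIIb at 3.78 ± 1.63 TPM at day 10 and 0.799 ± 0.348 TPM at day 0, and IIIc at 8.77 ± 1.42 TPM at day 10 and 2.87 ± 0.878 TPM at day 0. Among Fgfr1 transcripts with exactly 1 of the 2 exons, the IIIb share was 0, 0, 0 and 1.81% in day 10 libraries and 0, 0, 2.44 and 0% in day 0 libraries. The Fgfr1 IIIc form averaged 27.1 ± 2.5 TPM at day 10 and 14.4 ± 1.28 TPM at day 0.

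Among the single transcripts of these 3 receptors, 16 held at least 5% of their gene on average and were compared by their share of the gene's TPM. None passed after adjustment, while 2 had an unadjusted p of 0.0286, the smallest that 70 assignments of 8 libraries allow (adjusted p = 0.229, exact permutation test). They were Fgfr1-202, an IIIc transcript, at 20 ± 4.69% of Fgfr1 at day 10 and 28.7 ± 2.99% at day 0, and Fgfr1-208, a transcript annotated for nonsense-mediated decay that holds both exons, at 21.3 ± 1.76% at day 10 and 26.5 ± 3.02% at day 0. Part of the gene totals comes from transcripts classed as holding neither exon with both ends matched. In Fgfr2, Fgfr2-226 (4429 bases, annotated for nonsense-mediated decay) held 24.5 ± 7.21% at day 10 and 18.2 ± 14.1% at day 0, and Fgfr2-217 (2425 bases) held 20 ± 2.19% at day 10 and 11.2 ± 8.89% at day 0. In Fgfr3, Fgfr3-217, of 780 bases, held 51.2 ± 7.2% of Fgfr3 at day 10 and 44.8 ± 5.54% at day 0, on 281 counts at day 10 and 69 at day 0.

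**Figure D3:**
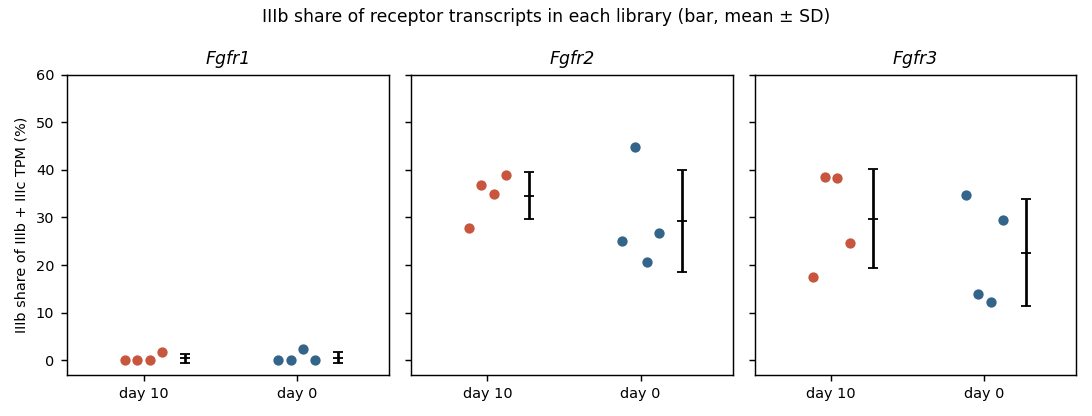
IIIb share of the summed IIIb and IIIc transcript TPM (percent) of Fgfr1, Fgfr2 and Fgfr3 in each library, day 10 (red) left of day 0 (blue), with mean and SD beside the points. The groups overlap in all 3 receptors, and the shares of Fgfr1 stay between 0 and 2.44%.

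The feedback inhibitors parted in 2 directions. Summed over the 7 genes measured, they stood at 362 ± 13 TPM at day 10 and 417 ± 28.7 TPM at day 0 (SD, n = 4 each). The median log2 change of all genes was 0.39 on log2(TPM + 1) and 0.06 in counts, and no sum was taken in counts. The Sprouty genes encode membrane-associated inhibitors between receptor and RAF. Spry4 lay at 25, 23, 22.4 and 19.1 TPM in day 10 libraries and at 84, 99.1, 87.9 and 88.8 TPM in day 0 libraries (log2 change -2.44 ± 0.08, adjusted p = 5.15e-12). Spry2 lay at 44.4, 53, 45.7 and 48 TPM in day 10 libraries and at 91.9, 97, 79.4 and 81.3 TPM in day 0 libraries (log2 change -1.28 ± 0.07, adjusted p = 5.93e-10). Spry1 went the other way, at 26, 32.3, 28.2 and 25.7 TPM in day 10 libraries and 10.5, 12.3, 10.9 and 12.2 TPM in day 0 libraries (log2 change 0.86 ± 0.10, adjusted p = 1.82e-06). None of these 3 Sprouty genes had overlapping groups, and each kept its direction and its call under all 18 alternative settings.

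The Spred genes encode relatives of Sprouty that bring neurofibromin to RAS, and they split as well. Spred2 lay at 23.1, 26.9, 23.7 and 24 TPM in day 10 libraries and at 37.9, 37.2, 32.1 and 35.2 TPM in day 0 libraries (log2 change -0.90 ± 0.07, adjusted p = 4.38e-08). Spred3 lay at 7.02, 9.39, 7.52 and 6.24 TPM in day 10 libraries and at 2.69, 1.98, 1.64 and 3.61 TPM in day 0 libraries (log2 change 1.32 ± 0.17, adjusted p = 6.22e-06). Their groups did not overlap, with Spred2 lower and Spred3 higher at day 10. Spred1 lay at 93.3, 94.3, 93.6 and 97.5 TPM in day 10 libraries and at 107, 105, 79.5 and 91.7 TPM in day 0 libraries, where the groups overlap. Its counts fell by 0.45 ± 0.07 on the log2 scale (adjusted p = 2.5e-05), while on TPM the change was -0.00 (adjusted p = 0.967), which was -0.40 from the median of all genes there.

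Dusp6, a phosphatase that acts on ERK and is itself induced by it, was the member with the highest level at day 10. It averaged 137 ± 4.13 TPM at day 10 and 94.8 ± 4.53 TPM at day 0 (SD, n = 4 each), with no overlap between libraries, yet its change in counts was 0.07 ± 0.06 on the log2 scale and did not pass (adjusted p = 0.273). On TPM the change of 0.53 ± 0.07 passed (adjusted p = 3.52e-05), of which 0.13 lay above the median of all genes on that scale.

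The other genes of the pathway were taken from 6 lists of 83 genes. Of the 78 tested, 48 were higher (61.5%) and 22 lower (28.2%) at day 10, with a median log2 change of 0.55, beside 42.7% higher, 39.4% lower and 0.06 over all genes. On TPM, 14 rather than 22 were lower. The heparan sulphate list holds the enzymes that build and trim the sugar and its carrier proteins. It had 20 of 21 genes higher (95.2%) and 1 lower (4.76%). The calls of Ext1, Ext2, Hs2st1 and Sulf2, all higher, ended under some alternative setting (highest adjusted p over the alternatives 0.131, 0.603, 0.254 and 0.157). Ndst1, which starts sulphation of the chain, averaged 164 ± 16.6 TPM at day 10 and 13.3 ± 2.15 TPM at day 0 (SD, n = 4 each; log2 change 3.06 ± 0.07, adjusted p = 1.23e-13). Gpc6, a glypican that carries the chain at the membrane, averaged 103 ± 3.17 TPM at day 10 and 10.5 ± 0.978 TPM at day 0 (log2 change 2.95 ± 0.07, adjusted p = 2.06e-13). The gene that fell, the sulphotransferase Hs3st1, averaged 20.1 ± 9.12 TPM at day 10 and 23.1 ± 0.956 TPM at day 0 (log2 change -0.64 ± 0.26, adjusted p = 0.0406). Its adjusted p was 0.0548 to 0.313 under 9 of the 18 alternatives, among them leaving out any 1 day 0 library or day 10 library 4.

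Among co-receptors and binding proteins, 6 of 8 were higher (75%, against 42.7% of all genes) and 1 lower (12.5%, against 39.4%). Cdh2 (N-cadherin), which binds FGF receptors at the membrane, averaged 237 ± 6.32 TPM at day 10 and 5.8 ± 0.685 TPM at day 0 (SD, n = 4 each; log2 change 4.96 ± 0.09, adjusted p = 1.62e-14). Flrt2, an adhesion protein that also binds these receptors, averaged 51 ± 3.84 TPM at day 10 and 3.7 ± 0.518 TPM at day 0 (log2 change 3.34 ± 0.09, adjusted p = 6.82e-13). The lower gene, the adhesion molecule L1cam, averaged 1.68 ± 1.22 TPM at day 10 and 1.69 ± 0.178 TPM at day 0. Its call in counts (log2 change -1.22 ± 0.38, adjusted p = 0.00984) ended with transcript length allowed for (-0.48, adjusted p = 0.344) and on TPM (-0.11, adjusted p = 0.728). Without day 10 library 2 it was -1.90.

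The adaptors moved both ways, near the shares of all genes. Of 13 tested, 6 were higher (46.2%, against 42.7% of all genes) and 4 lower (30.8%, against 39.4%). Gab1 and Gab2 are docking proteins of the same family. Gab2 averaged 13.3 ± 1.24 TPM at day 10 and 0.317 ± 0.0579 TPM at day 0 (SD, n = 4 each; log2 change 4.84 ± 0.15, adjusted p = 1.57e-12). Gab1 averaged 66.9 ± 9.01 TPM at day 10 and 172 ± 16 TPM at day 0 (log2 change -1.72 ± 0.07, adjusted p = 1.66e-11). Frs2, the adaptor bound to the receptors, was higher (54 ± 3.51 TPM at day 10 and 21.3 ± 1.44 TPM at day 0; log2 change 0.87 ± 0.06, adjusted p = 7.29e-09). Its relative Frs3 was lower (2.98 ± 0.744 TPM at day 10 and 5.43 ± 1.93 TPM at day 0; log2 change -0.94 ± 0.21, adjusted p = 0.000884). With the gene length trend removed the change of Frs2 was 0.23 (adjusted p = 0.00278). In both pairs of relatives the members moved in opposite directions, but these genes were named for the smallest p in each direction. Another pair in the list, Sos1 and Sos2, was higher in both (log2 change 0.40 ± 0.06 and 0.98 ± 0.07), and neither Crk nor Crkl was called.

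In the cascade from RAS to ERK, 8 of 13 genes were lower and 3 higher, a larger share lower (61.5%) than the 39.4% of all genes. Map2k1 (MEK1), the kinase that activates ERK, averaged 34.4 ± 4.01 TPM at day 10 and 54.6 ± 2.07 TPM at day 0 (SD, n = 4 each; log2 change -1.16 ± 0.08, adjusted p = 8.39e-09). Of the kinases that ERK activates, Rps6ka1 fell (26.7 ± 4.45 TPM at day 10 and 56.3 ± 7.76 TPM at day 0; log2 change -1.76 ± 0.09, adjusted p = 4.42e-10) and Rps6ka3 rose (78.5 ± 5.93 TPM at day 10 and 27.3 ± 5.07 TPM at day 0; log2 change 1.51 ± 0.07, adjusted p = 9.73e-11). The scaffold Ksr1 rose by a log2 change of 1.28 ± 0.11 (adjusted p = 1.04e-07).

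Among other feedback genes, 9 of 12 were higher (75%, against 42.7% of all genes) and 2 lower (16.7%, against 39.4%). Nf1 (neurofibromin), which switches RAS off and is the partner of the Spred proteins, averaged 111 ± 1.89 TPM at day 10 and 28.9 ± 2.44 TPM at day 0 (SD, n = 4 each; log2 change 1.58 ± 0.07, adjusted p = 3.54e-11). Rasa3, another protein that switches RAS off, had a log2 change of 2.14 ± 0.10 (adjusted p = 1.24e-10). Dusp9, a phosphatase of ERK expressed in embryonic stem cells, averaged 16.3 ± 4.79 TPM at day 10 and 54.7 ± 2.79 TPM at day 0 (log2 change -2.18 ± 0.18, adjusted p = 1.16e-06). Dusp14 was also lower (-1.02 ± 0.28, adjusted p = 0.00356), and its call ended on TPM (-0.34, adjusted p = 0.0913) and with the length trend removed (-0.60, adjusted p = 0.0582).

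Genes that FGF signalling is known to induce went both ways, as all genes did. Of 11 tested, 4 were higher (36.4%, against 42.7% of all genes) and 6 lower (54.5%, against 39.4%). Etv4 and Etv5, the ETS factors used as readouts of FGF signalling in the embryo, were both lower. Etv4 lay at 6.93, 9.86, 8.7 and 6.73 TPM in day 10 libraries and at 75.4, 74.2, 75.7 and 72.3 TPM in day 0 libraries (log2 change -3.62 ± 0.14, adjusted p = 3.44e-11). Etv5 lay at 18.1, 44.9, 36.3 and 29.2 TPM in day 10 libraries and at 175, 269, 197 and 241 TPM in day 0 libraries (log2 change -2.88 ± 0.18, adjusted p = 2.26e-07). Both were low in every day 10 library. Epha2 was lower too, at 14.6 ± 2.1 TPM at day 10 and 77.2 ± 7.59 TPM at day 0 (SD, n = 4 each; log2 change -2.89 ± 0.08, adjusted p = 7.68e-13). Of the immediate early genes in the list, Fos and Egr1 rose. Fos averaged 2260 ± 171 TPM at day 10 and 6.62 ± 1.54 TPM at day 0 (log2 change 7.95 ± 0.18, adjusted p = 9.71e-12), and Egr1 732 ± 104 TPM at day 10 and 7.93 ± 1.67 TPM at day 0 (log2 change 6.07 ± 0.15, adjusted p = 1.16e-11). Ier3 did not pass (log2 change 0.34 ± 0.21, adjusted p = 0.152), Myc was lower (-2.16 ± 0.22, adjusted p = 1.86e-06), and Fosl1, with 14 counts at day 10 and 3 at day 0, was not tested. Per the series' design text, cells of both days were dissociated before RNA extraction, and its part in these levels was not tested.

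**Figure D4:**
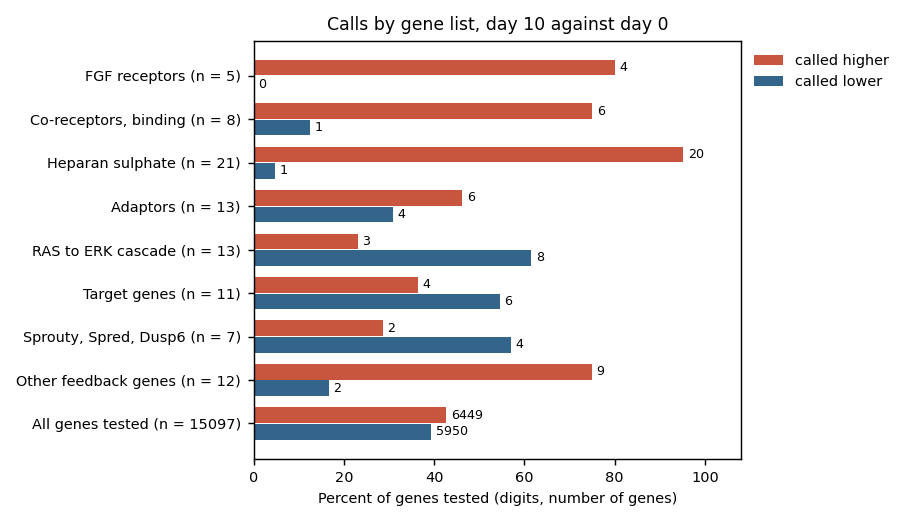
Percent of the genes tested in each list that were called higher (red) or lower (blue) at day 10, with the number of genes beside each bar. The receptors had 4 of 5 genes higher, the heparan sulphate list 20 of 21, the cascade from RAS to ERK 8 of 13 lower, and all genes tested 42.7% higher and 39.4% lower.

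Of the FGF genes compared, only Fgf15 had day 10 library 2 far from the other day 10 libraries by the outlier comparison given below. Library 2 was the highest day 10 library for Fgf15 (14.3 TPM), Fgf8 (4.99 TPM), Fgf3 (3.73 TPM), Fgf13 (8.85 TPM) and Fgfr4 (8.72 TPM). It was also the highest for other members, among them Dusp6, Fgf11, Spred2, Spred3, Spry1 and Spry2, so that place alone sets no gene apart. In the same library the neural markers summed to 189 TPM, against 77 to 82.5 TPM in the other day 10 libraries and 54.1 to 66.6 TPM at day 0, and the endoderm markers summed to 1140 TPM, against 396 to 728 TPM in the other day 10 libraries and 93.9 to 106 TPM at day 0. Over both days, 2 of 6 neural genes were higher and 1 lower, 5 of 8 endoderm genes were higher and none lower, and no gene of either list was at 0 on either day. The part of such cells in the levels of these FGF genes was not tested. Without library 2, 15 of 27 FGF genes were higher (all genes, 42.1%) and 9 lower (39.8%), the lower ones now including Fgf15 and Fgfr4. The genes tested then held Fgf7, called higher, in place of Fgf8.

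**Figure D5:**
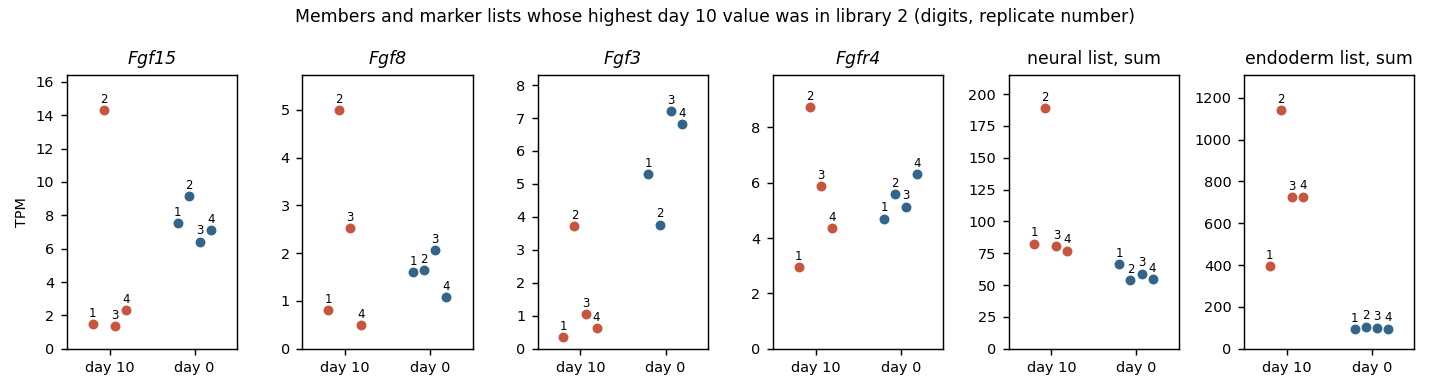
TPM of Fgf15, Fgf8, Fgf3 and Fgfr4 and summed TPM of the neural and endoderm marker lists in each library, day 10 (red) left of day 0 (blue), with the replicate number above each point. In all 6 panels, which were chosen for this, the highest day 10 point is library 2, at 14.3 TPM for Fgf15 against 1.36 to 2.34 TPM in the other day 10 libraries.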

How the data were processed

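The members, the gene lists and the tests were chosen with earlier results of these data known. Per the labels, total RNA was extracted with TRI Reagent and libraries were made with a SMART-Seq total RNA kit that removes ribosomal RNA. The submitters' processing notes name kallisto (version 1, with no further digits) and DESeq2. Neither the genome build nor the transcript set behind the quantification is stated in the labels or headers. The deposited files hold, per the file headers, estimated counts per transcript, which are not scaled, and TPM, which the authors' software scaled for effective length and library size. Of the estimated counts in a library, 40.3 to 46.3% were not whole within 1e-06.

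Of 126126 transcripts, 117992 (93.6%) matched GENCODE M21 by identifier without version, and the other 8134, with 1.15 to 1.23% of counts, were left out. Both quantities were added up per gene for 32780 genes, and the counts were then rounded. The 15097 genes kept by filterByExpr were tested in edgeR 4.0.16 under R 4.3.3 (TMM scaling, robust quasi-likelihood F test, two-sided, no covariates), with Benjamini-Hochberg adjustment over all of them and a threshold of 0.05. SE was taken as log2 change over root F, without sign. Receptor transcript shares were compared by exact permutation over 70 assignments, adjusted over the shares compared. Sequences of the receptor exons are not reported here. The fit and the permutation test were tested on simulated data. For 1 to 3 counts in a group the ratio carries a 95% exact interval, which covers counting error only, as the reads carry no molecular identifiers. Kallisto shares reads among similar and overlapping transcripts, and no use of strand is stated, so members that overlap a gene on the opposite strand (Fgf2, Fgf10, Fgf14, Fgf15, Fgf20, Fgf22, Fgfr1, Fgfr3, Spred3 and Spry1) are uncertain to that extent. Gene counts differed by more than sampling noise between all pairs of replicates (chi-square per degree of freedom 3.99 to 27.4), so all 8 libraries were kept.

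Values in every library are given for members called with a mean of at least 5 TPM on either day, and for Fgf8, Fgf15 and Fgfr4, chosen after their values were seen. Of each other list, up to 2 called genes with the smallest p in each direction are named, plus Etv4 and Etv5. Klb, Kl, Ier3, Myc, Fosl1, Ccnd1, Sos1, Sos2, Crk, Crkl, Ext1, Ext2, Hs2st1, Sulf2 and the marker Klf4 were chosen after their values were seen. The same holds for the markers Krt7, Gata3, Cdx2 and Elf5. Alternatives were DESeq2 1.42.0, other size factors, other filters, transcript length offsets, limma 3.58.1 on log2(TPM + 1) and log2(TPM + 0.1) for genes with a mean of at least 0.5 TPM, the replicate number as a block, and each library left out in turn.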

Additional observations from a re-analysis of the deposited data

Results flagged for a closer look

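In 52 sets of 4 libraries of a day, the highest or lowest library was compared with the rest, a comparison that chance alone flags in about 1 set of 20, and 5 libraries stood far from the other 3. Fgf15 was at 14.3 TPM in day 10 library 2 and at 1.36 to 2.34 TPM in the other day 10 libraries. Fgf2 was at 7.75 TPM in day 10 library 1 and at 3.81 to 4.05 TPM in the others, whereas its counts were 149 in library 1 and 146, 155 and 208 in the others. Of the Fgf2 TPM in that library, 37.8% came from 2 counts on Fgf2-207, a retained-intron transcript of 257 bases. Fgf5 was at 1.81 TPM in day 0 library 3 and at 1.19 to 1.29 TPM in the other day 0 libraries. The IIIb share of Fgfr1 was 1.81% in day 10 library 4 and 2.44% in day 0 library 3, and 0 in the other 3 libraries of each day, on 12 IIIb counts at day 10 and 8 at day 0. With the other 3 libraries at exactly 0 any other value would be flagged, so the chance rate above does not apply to these 2.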

How the results depend on the processing

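The count of FGF genes called higher, 14, ranged over 12 to 18 under the 18 alternatives, and the count called lower, 7, over 6 to 9. Of the 21 called FGF genes, 17 kept their direction and their call under every alternative in which they were tested. On log2(TPM + 1), where the pseudocount shrinks low genes, the changes were 2.69 for Fgf1, 2.57 for Fgf9, 2.49 for Fgf12, -2.68 for Fgf17 and -1.62 for Fgf3. With the length trend removed they were 0.91 for Nf1, 2.65 for Flrt2 and 4.19 for Gab2. Fgf10 reversed to -0.20 with the gene length trend removed. Of the genes not called, Fgf13 (-0.13) turned to 0.23 with transcript length as an offset, 0.27 with the length trend removed, 0.59 on log2(TPM + 0.1) and 0.48 on log2(TPM + 1), and ranged over -0.61 to 0.03 with 1 library left out (0.03 without day 10 replicate 1, 0.01 without replicate 3), and Fgf8 (0.25) turned to -0.02 on log2(TPM + 0.1). The count of other pathway genes called lower was 14 with limma on log2(TPM + 1) and 14 on log2(TPM + 0.1), against 22 in counts, and the cause was not tested. On TPM 66 to 66.1% of all calls were higher, against 52% in counts, with a median of all genes of 0.39 and 0.46, against 0.06. Leaving out 1 library gave differences of -0.61 to 0.451 points for the IIIb share of Fgfr1 (main -0.158, 0.451 without day 0 replicate 3), 2.43 to 10.4 for Fgfr2 and 3.74 to 11.3 for Fgfr3. With 3 libraries against 4, the smallest p of that test is 0.0571. With the replicate number as a block, 14 FGF genes were higher and 8 lower, 47 and 22 other pathway genes, and 12298 of all genes were called, against 12399, and Fgf15 passed (-1.57, adjusted p = 0.0305). In a paired sign-flip test, whose smallest p is 0.125, the IIIb differences of -0.158, 5.29 and 7.18 points gave adjusted p of 1, 0.75 and 0.75 (exact test). Libraries with the same number correlated weakly in their deviations (r = 0.0301 to 0.0494), so the numbers were not taken to pair them, although all 8 libraries correlated best with their own number. Low counts kept 7 FGF genes out of the test, and a batch running along with the day, of which the labels say nothing, cannot be told apart.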

Other observations

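In the order of genes along chromosome 7 in RefSeq, Fgf3, Fgf4 and Fgf15 follow each other, and Ccnd1 (cyclin D1, which drives entry into S phase) lies 2 genes beyond Fgf15. Ccnd1 was at 22.3, 49.2, 22.8 and 25.8 TPM in day 10 libraries and at 52.8, 44.4, 45.5 and 44.1 TPM in day 0 libraries, with a log2 change of -1.07 ± 0.23 (edgeR, adjusted p = 0.00276). All 4 of these genes had their highest day 10 value in library 2, which for Fgf4 was 0.137 TPM on 3 counts. FGF genes on other chromosomes, among them Dusp6, Spry1 and Spry2, also had it there, and the share over all genes was not counted. No value is given for LTO1, which lies between Fgf15 and Ccnd1. Without that library the log2 change was -1.38 ± 0.09 for Ccnd1, -3.46 ± 0.30 for Fgf3 and -2.49 ± 0.24 for Fgf15. On chromosome 6, Fgf23, which rose, follows Fgf6, which had 0 counts at day 10 and 1 at day 0.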
